A study of Mus musculus with 6 samples.

Results

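The genes described here were 8 genes of the fetal-like regenerative epithelium: Ly6a, Ly6d, Krt7, Anxa1, Anxa3, Anxa8, Clu and Sprr1a. They were taken by gene symbol and not by a cutoff on their values, although earlier results of these data were known. All 8 were among the 27202 genes listed and among the 16246 that were tested because they averaged 10 normalized counts or more. The libraries came from colonic tissue of Nedd4l fl/fl VillinCre mice (cKO, 3 libraries) and Nedd4l fl/fl littermates (WT, 3 libraries). Mice of both genotypes carried the floxed Nedd4l alleles, were 8 to 10 weeks old and drank water with 2% DSS, a polymer that damages the lining of the colon, until they were killed after 7 days. In the cKO mice, Cre under the Villin promoter deletes Nedd4l, which encodes an E3 ubiquitin ligase, constitutively in intestinal epithelial cells (IECs), whereas stromal, endothelial and immune cells in the same tissue keep the gene. The comparison asked how these genes differed between genotypes in injured colon, and no library from mice without DSS was analysed here.

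When the adult intestinal epithelium is wounded, cells at the wound edge can shut down the adult crypt stem cell program and switch on genes of the fetal gut. Ly6a, which encodes the surface protein Sca-1, and the annexin gene Anxa1 are widely used marks of that state, and Clu marks a damage-induced stem cell. The transcriptional coactivator YAP, which binds DNA through TEAD factors and is restrained by the Hippo kinases, is known to drive much of this program after colitis. Several of these genes have other sources in whole tissue, since Ly6a is also an interferon-inducible gene of endothelial and hematopoietic cells, Ly6d and Sprr1a are genes of stratified squamous epithelium, and Anxa1 is abundant in myeloid cells. In bulk tissue, fewer cells of a type and less RNA per cell cannot be told apart.

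Between genotypes, 0 of the 8 genes passed the threshold, an adjusted p under 0.05 in limma with Benjamini-Hochberg adjustment over all 16246 genes. The same threshold called 0% of all genes tested in the higher and 0% in the lower direction, and the smallest adjusted p of any gene was 0.111. Without adjustment, 2 of the 8 genes (Ly6a and Ly6d) had a p under 0.05, both with the higher level in cKO, beside 1122 genes or 6.91% higher and 1151 genes or 7.08% lower among all genes tested. In 3 of the 8 genes (Ly6a, Ly6d and Krt7) every cKO library was above every WT library, and in 0 every cKO library was below, against 10.5% and 10.9% of all genes tested. The median log2 fold change of the 8 genes was 0.39, with 5 above and 3 below 0, whereas the median of all genes tested was 0.0013, with 8160 above and 8086 below 0.

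**Figure D1:**
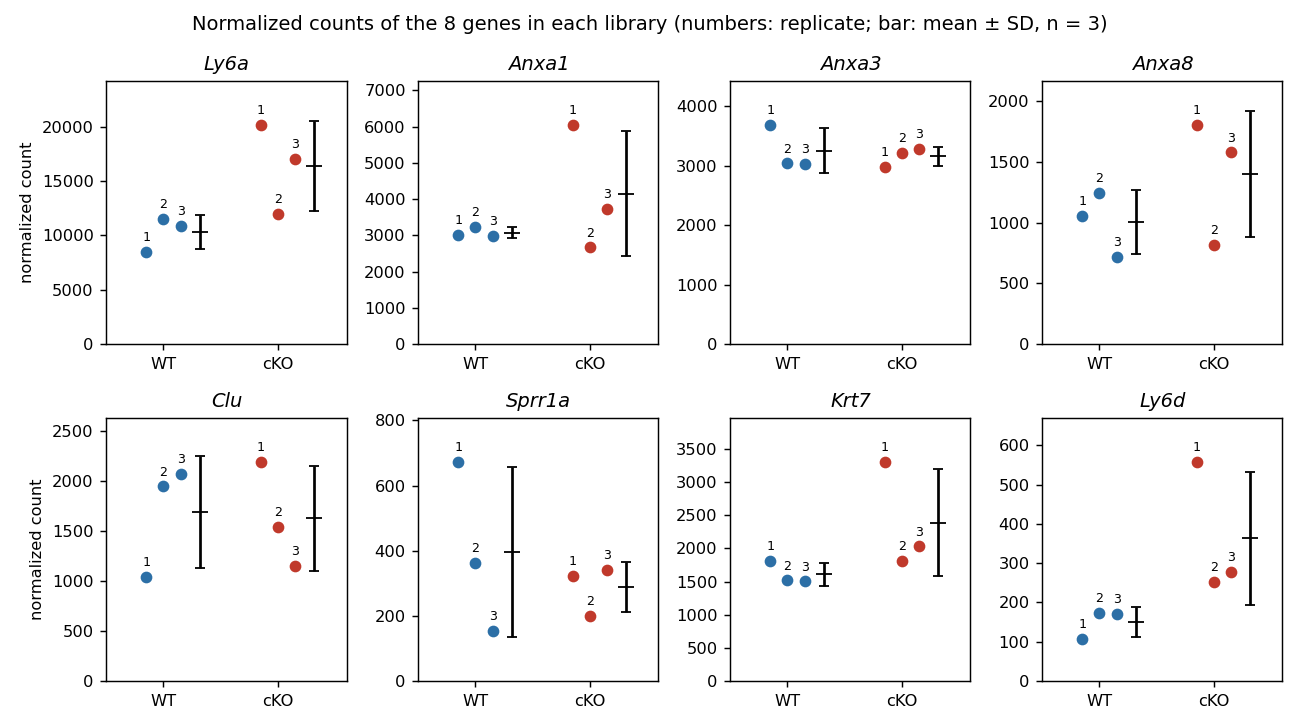
Normalized counts of the 8 genes in each of the 3 WT and 3 cKO libraries, with the replicate number above each point and the mean ± SD (n = 3) as a black bar. Every axis starts at 0. Ly6a, Krt7 and Ly6d are the genes in which all 3 cKO points lie above all 3 WT points, and cKO 1 is the highest library in 6 of the 8 panels.

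The libraries held between 14914367 and 17547270 units, 1 unit being the smallest value in a library, so differences in depth were small. Nedd4l itself was at 476, 942 and 566 normalized counts in cKO 1, 2 and 3 and between 1241 and 1271 in WT, a fold of 0.50 with an adjusted p of 0.225 in limma. The library cKO 2 therefore had the highest Nedd4l level among the cKO libraries. Over all genes tested, cKO 2 correlated more closely with the WT libraries (mean r = 0.977) than with the other cKO libraries (mean r = 0.966). The library cKO 1 had the lowest mean r of all libraries, both with its own genotype (0.963) and with the other genotype (0.948). Values without cKO 2 and without cKO 1 are given beside the results that turn on them. The epithelial markers Epcam, Cdh1, Vil1, Krt8, Krt18, Cldn7, Cldn3 and Lgals4 summed to between 182584 and 208267 normalized counts in cKO and between 195791 and 208841 in WT.

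Ly6a (ENSMUSG00000075602, chr15:74994877-74998031 on the minus strand of GRCm38) was the most abundant of the 8 genes. It was at 20173, 11994 and 17073 normalized counts in cKO 1, 2 and 3 and at 8512, 11530 and 10905 in WT 1, 2 and 3. All cKO libraries were above all WT libraries, but cKO 2 lay only just above WT 2 and WT 3, and the difference between genotypes rested mainly on cKO 1 and cKO 3. The mean was 16413 ± 4129 in cKO and 10316 ± 1593 in WT (SD, n = 3 each). The log2 fold change was 0.65 ± 0.21 (SE; 95% CI, 0.15 to 1.15), which is 1.57-fold, with an adjusted p of 0.296 in limma. An exact two-sided permutation test of the 6 values gave p = 0.1, the smallest value that 3 against 3 libraries allow. Without cKO 2 the log2 fold change was 0.86 (adjusted p = 0.0556), and without cKO 1 it was 0.48 (adjusted p = 0.412). Ly6a passed the threshold in 1 of 15 alternative settings, in which limma weighted each library by its spread and gave cKO 3 a weight of 4.39 and cKO 1 a weight of 0.41 (log2 fold change 0.70, adjusted p = 0.0478).

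Ly6d (ENSMUSG00000034634, chr15:74762056-74763620, minus strand) encodes another GPI-anchored surface protein of the Ly6 family and lies 231 kb from Ly6a. It was at 559, 252 and 279 normalized counts in cKO 1, 2 and 3 and at 107, 174 and 172 in WT 1, 2 and 3. The groups did not overlap, and cKO 1 was well above the other cKO libraries, which were close to each other. The mean was 363 ± 170 in cKO and 151 ± 38.1 in WT (SD, n = 3 each). The log2 fold change of 1.20 ± 0.34 (SE; 95% CI, 0.39 to 2.01), a 2.30-fold difference, was the highest of the 8 genes and lay at the 98.2 percentile of all genes tested, with an adjusted p of 0.273 in limma. Without cKO 1 it was 0.84 (adjusted p = 0.223), and without cKO 2 it was 1.42 (adjusted p = 0.129).

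Krt7 (ENSMUSG00000023039, chr15:101411043-101430313, plus strand), a type II keratin of simple ducts that is low in normal colonocytes, was the third gene without overlap. Its values were 3312, 1816 and 2032 normalized counts in cKO 1, 2 and 3 and 1808, 1519 and 1503 in WT 1, 2 and 3. The gap between the groups was very narrow, since cKO 2 and WT 1 were nearly equal, and cKO 1 stood apart from the other 5 libraries. The mean was 2387 ± 808 in cKO and 1609.9 ± 172 in WT (SD, n = 3 each), and the log2 fold change was 0.52 ± 0.23 (SE; 95% CI, -0.02 to 1.07) with an adjusted p of 0.365 in limma. Without cKO 1 the log2 fold change was 0.26 (adjusted p = 0.412). The antisense gene Gm671, which overlaps Krt7, was between 1.80 and 11.3 normalized counts in all libraries.

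**Figure D2:**
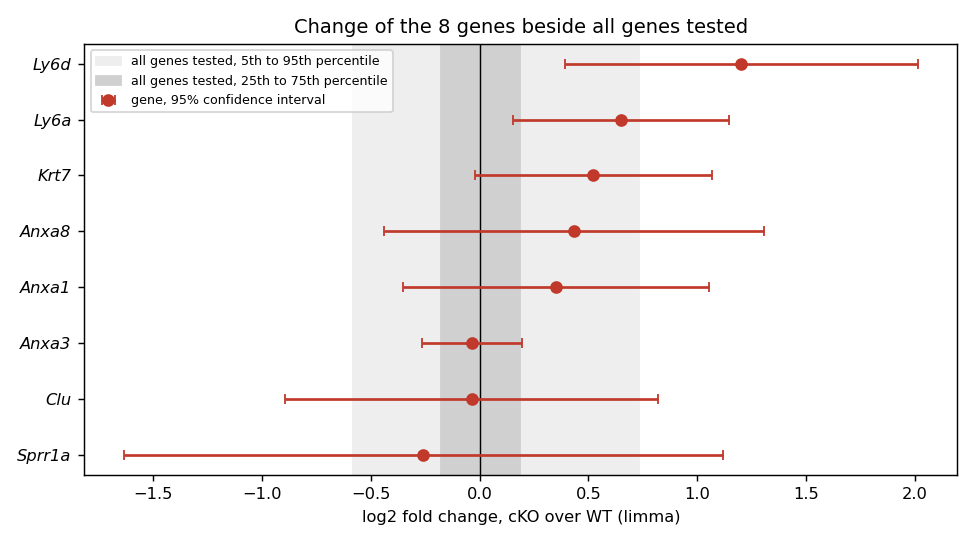
Log2 fold change of each of the 8 genes, cKO over WT, with its 95% confidence interval from limma, against the 5th to 95th and 25th to 75th percentiles of all 16246 genes tested (grey bands). The intervals of Ly6d and Ly6a lie above 0, and those of the other 6 genes span 0.

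The 3 annexin genes, which encode calcium-dependent phospholipid-binding proteins, differed from each other. Anxa1 (ENSMUSG00000024659, chr19:20373428-20390944, minus strand), whose product is an anti-inflammatory mediator that promotes epithelial repair, was at 6049, 2668 and 3731 normalized counts in cKO 1, 2 and 3 and at 3015, 3241 and 2978 in WT 1, 2 and 3. The WT libraries were close together (3078 ± 143; SD, n = 3), whereas the cKO libraries spread from below to well above them (4149 ± 1729; SD, n = 3). The log2 fold change was 0.35 ± 0.29 (SE; 95% CI, -0.35 to 1.05; adjusted p = 0.602 in limma). The difference depended on cKO 1, since it was 0.04 (adjusted p = 0.939) without that library. Without cKO 2 it was 0.63 (adjusted p = 0.191).

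Anxa8 (ENSMUSG00000021950, chr14:34085981-34100571, plus strand), which is found in squamous and fetal epithelia, was at 1805, 819 and 1578 normalized counts in cKO 1, 2 and 3 and at 1056, 1243 and 718 in WT 1, 2 and 3. The libraries cKO 1 and cKO 3 were above all WT libraries, while cKO 2 lay within the WT range. The log2 fold change was 0.44 ± 0.35 (SE; 95% CI, -0.44 to 1.31; adjusted p = 0.599 in limma), and it was 0.78 (adjusted p = 0.185) without cKO 2, 0.21 (adjusted p = 0.872) without cKO 1 and 0.21 (adjusted p = 0.849) without WT 3.

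Anxa3 (ENSMUSG00000029484, chr5:96793339-96845966, plus strand) was at 2984, 3219 and 3286 normalized counts in cKO 1, 2 and 3 and at 3688, 3039 and 3029.5 in WT 1, 2 and 3. It varied least of the 8 genes, with the highest library only 1.24 times the lowest, and it was the only one of them with its lowest value in cKO 1. Its log2 fold change was -0.03 ± 0.10 (SE; adjusted p = 0.891 in limma), and the 95% CI from -0.26 to 0.19 was the narrowest of the 8.

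Clu (ENSMUSG00000022037, chr14:65968483-65981547, plus strand), which encodes the secreted chaperone clusterin, was at 2190.3, 1536 and 1150.1 normalized counts in cKO 1, 2 and 3 and at 1039.9, 1943 and 2066 in WT 1, 2 and 3. High and low libraries were found in both genotypes, and the groups overlapped almost completely. The mean was 1625 ± 526 in cKO and 1683 ± 560 in WT (SD, n = 3 each), and the log2 fold change was -0.04 ± 0.35 (SE; 95% CI, -0.89 to 0.82; adjusted p = 0.970 in limma). Its direction depended on single libraries, since it was 0.19 without cKO 3 and -0.35 without WT 1.

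Sprr1a (ENSMUSG00000050359, chr3:92483952-92485895, minus strand), a small proline-rich protein that is cross-linked into the cornified envelope of squamous cells and is induced in injured gut, was at 323, 199 and 341 normalized counts in cKO 1, 2 and 3 and at 674, 363 and 154 in WT 1, 2 and 3. Here the spread was among the WT libraries, which held both the highest and the lowest value, and all cKO values lay between them. The log2 fold change was -0.26 ± 0.56 (SE; 95% CI, -1.63 to 1.12; adjusted p = 0.856 in limma). It was 0.24 without WT 1, -0.82 without WT 3, -0.40 without cKO 3 and -0.013 without cKO 2.

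The RefSeq promoter table on GRCm38.p6 held 4 of the 8 genes (Sprr1a, Anxa8, Krt7 and Anxa1), and the window from 250 to 15 bases before the start site was searched on both strands for the letters GGAATG (the core of TEAD sites), TGANTCA (AP-1), TTCNNNGAA (a STAT site known as GAS) and TATAAA (the TATA box). These 4 motifs were present in 12.1%, 6.5%, 6.64% and 11.9% of 32851 promoter windows of the same length, respectively. The windows of Sprr1a (chr3:92485896-92486131, minus strand) and Anxa8 (chr14:34085729-34085964, plus strand) are shown because, of the 4, only these overlapped no annotated exon of their own gene. They are written from 5′ to 3′, with matches in capitals.
Sprr1a: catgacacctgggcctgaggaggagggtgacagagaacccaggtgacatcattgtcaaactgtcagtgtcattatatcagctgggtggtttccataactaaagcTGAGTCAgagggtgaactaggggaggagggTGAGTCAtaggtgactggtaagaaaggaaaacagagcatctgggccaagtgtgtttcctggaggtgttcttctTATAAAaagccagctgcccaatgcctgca
Anxa8: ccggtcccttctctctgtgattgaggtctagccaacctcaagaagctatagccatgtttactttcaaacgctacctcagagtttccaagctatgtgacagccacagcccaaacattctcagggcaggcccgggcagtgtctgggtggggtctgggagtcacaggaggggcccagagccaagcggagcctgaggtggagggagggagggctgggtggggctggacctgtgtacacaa
The Sprr1a window held 2 AP-1 matches, which begin 146 and 116 bases before the start site, and 1 TATA match at 43 bases. The Anxa8 and Krt7 windows held none of these 4 motifs, and that of Anxa1 held 1 TEAD match at 236 and 1 TATA match at 32 bases. The Krt7 and Anxa1 windows overlap an annotated exon of their own gene, so they are not purely upstream sequence. A match is a string of letters and was not tested as a binding site.

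Levels can be compared between genes only per length, as normalized counts per kilobase of gene length. In WT, Ly6a was at 8561 ± 1322 per kilobase (SD, n = 3), above Anxa1 at 1180.2 ± 54.7 and Anxa3 at 893 ± 104, and no library of one of these genes reached the level of the next. Anxa8 (535 ± 142), Sprr1a (492 ± 324) and Clu (490 ± 163) followed, with overlapping libraries. Krt7 (228 ± 24.4) and Ly6d (203 ± 51.3) were the lowest and also overlapped. In cKO the order again began with Ly6a (13621 ± 3427), Anxa1 (1591 ± 663) and Anxa3 (868 ± 43.6), but Ly6d came between Anxa8 and Clu at 488 ± 228 and Krt7 last at 339 ± 115, and all neighbours from Anxa3 downward had overlapping libraries. Per kilobase, Ly6a lay at the 99.8 percentile of all genes tested and Krt7, the lowest of the 8 by this measure, at the 79.8 percentile. The gene length used for Krt7 was 7049 bases, the longest of the 8, and 5 transcripts are annotated for it. Its low place rests on that length, since its undivided WT mean was above those of Anxa8, Sprr1a and Ly6d. Which transcripts were present was not examined.

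Among the libraries, cKO 1 was the highest in 6 of the 8 genes, all except Anxa3 and Sprr1a, for which WT 1 was the highest. Relative to the WT mean of each gene on the log2 scale, the 8 genes averaged 0.76 in cKO 1, -0.01 in cKO 2 and 0.32 in cKO 3, and between -0.14 and 0.13 in the WT libraries. The average in cKO 2 was thus within the range of the WT libraries. With cKO 2 left out, 5 of the 8 genes (Ly6a, Ly6d, Krt7, Anxa1 and Anxa8) were above every WT library, where 18.5% of all genes were. With cKO 1 left out, Ly6a, Ly6d and Krt7 were above every WT library, where 15.1% of all genes were, and the median log2 fold change of the 8 genes was 0.13.

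**Figure D3:**
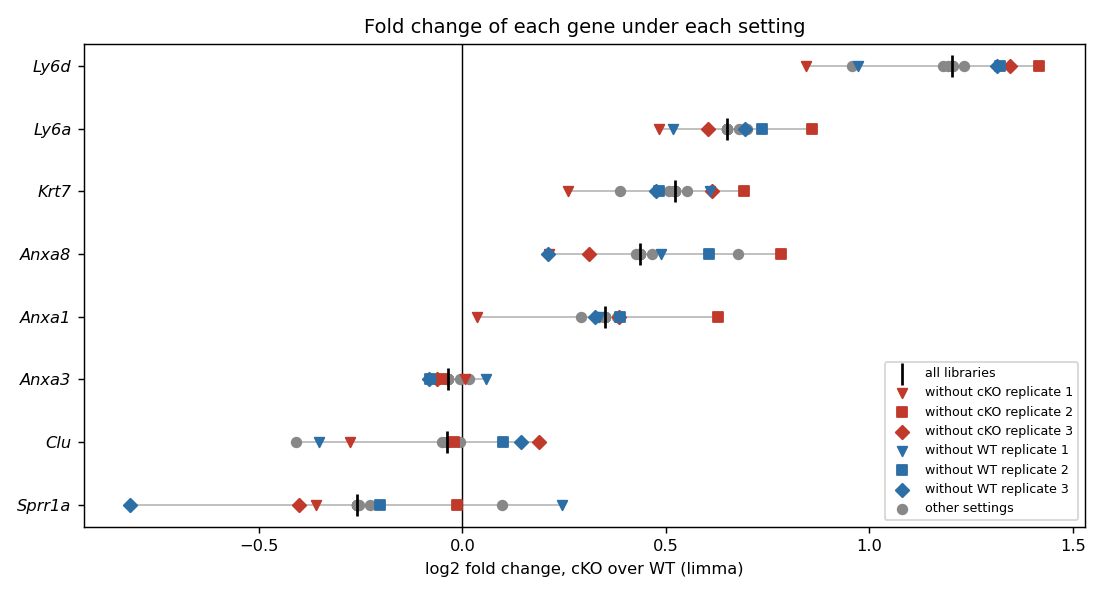
Log2 fold change of each of the 8 genes, cKO over WT, with all libraries (black bar), with 1 library left out (red for cKO, blue for WT) and under the other settings (grey). Ly6d, Ly6a, Krt7, Anxa8 and Anxa1 stay above 0 in every setting run, and Anxa3, Clu and Sprr1a take both signs.

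The relatives of Ly6a and Ly6d on chromosome 15 were mostly higher in cKO, and Ly6a and Ly6d themselves are left out of the counts that follow. Of 28 genes in the Ly6 family list, 24 were in the table, and the 14 others that could be tested had a median log2 fold change of 0.22, with 9 above and 5 below 0. Without adjustment, 5 of these 14 had a p under 0.05 in the higher and 1 in the lower direction, beside 6.91% and 7.08% of all genes tested. All 6 of these lie on chromosome 15, where the family spans 875 kb. Of the 8 others tested on that chromosome, 7 were higher and 6 were above every WT library, beside 10.5% of all genes, with a median of 0.74. Of the 6 on other chromosomes, 2 were higher and 0 had an unadjusted p under 0.05.

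Ly6c2, a surface protein of monocytes and endothelial cells, was at 396, 427 and 395 normalized counts in cKO 1, 2 and 3 and at 165, 81.9 and 165 in WT 1, 2 and 3. All cKO libraries were high to the same extent, unlike those of Ly6a and Ly6d, and the log2 fold change was 1.63 ± 0.27 (SE; adjusted p = 0.137 in limma, and 0.0180 with array weights). Ly6i was near the filter, at 42.2, 11.1 and 27.9 in cKO 1, 2 and 3 against 1.98 to 8.99 in WT (log2 fold change 2.10, adjusted p = 0.275). Ly6g, whose product is used to identify neutrophils, went the other way. It was at 2486, 2832 and 2200 in cKO 1, 2 and 3 and 2829, 3136 and 3064 in WT 1, 2 and 3 (log2 fold change -0.27, adjusted p = 0.329 in limma). Ly6g did not follow the neutrophil markers, which summed to 9256, 263 and 1412 in cKO 1, 2 and 3 and 189 to 257 in WT. Ly6g was chosen for mention after its values were seen. The Ly6 genes resemble each other closely in sequence, so how reads were divided among them is uncertain.

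The other families showed smaller or mixed differences. The 8 further annexin genes tested had a median log2 fold change of 0.12, with 6 higher, 2 lower and 0 with an unadjusted p under 0.05. Those with the smallest p were Anxa11 (log2 fold change -0.24, adjusted p = 0.381), Anxa6 (0.25, adjusted p = 0.398) and Anxa5 (0.45, adjusted p = 0.418). Without cKO 1, Anxa11 was at -0.14 and Anxa5 at 0.19, and without WT 2 Anxa6 was at 0.14. The 5 other small proline-rich genes that could be tested had a median of 0.02 (3 above and 2 below 0), and Sprr2a3 (0.26, adjusted p = 0.580), Sprr2h (0.91, adjusted p = 0.457) and Sprr2b (-0.38, adjusted p = 0.794) led by p, although the Sprr2 copies share sequence and are uncertain. Sprr2a3 was at 0.10 without cKO 2 and 0.48 without cKO 1, Sprr2h was at 0.42 without WT 3, and Sprr2b turned to 0.27 without WT 3. Of the 5 other simple epithelial keratins 2 were higher and 3 lower, and Krt19 (-0.22, adjusted p = 0.362) and Krt8 (-0.19, adjusted p = 0.422), the abundant keratins of colonocytes, had the opposite sign to Krt7, with Krt8 at -0.12 without cKO 1.

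**Figure D4:**
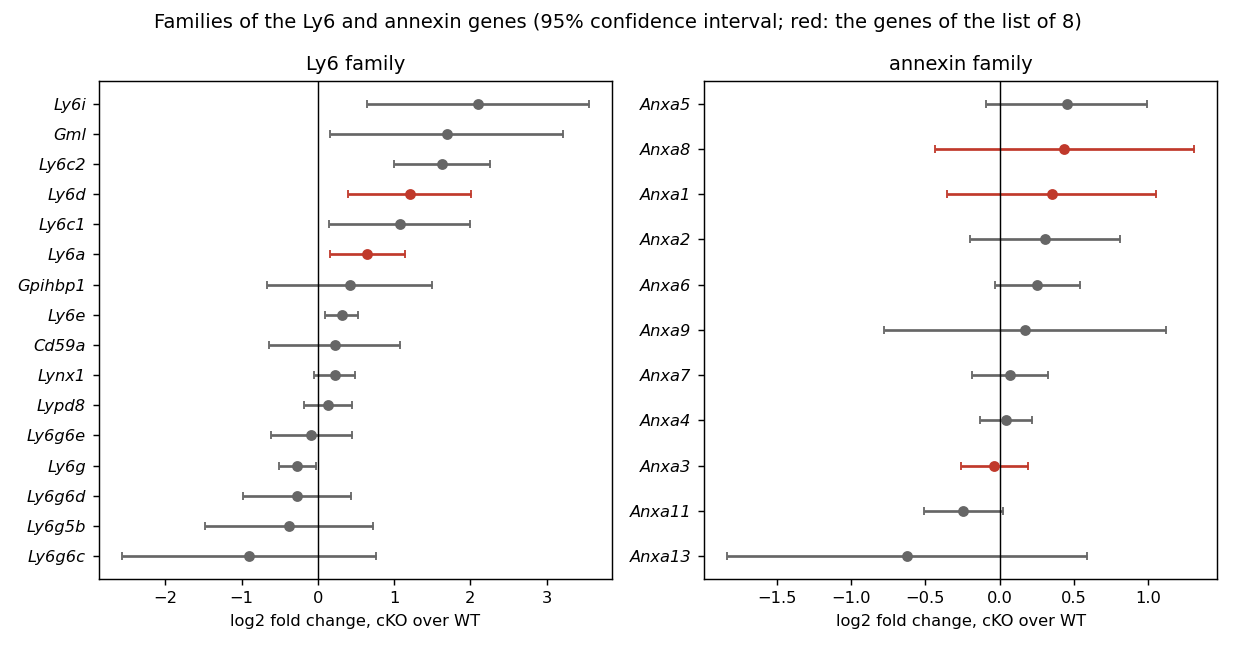
Log2 fold change, cKO over WT, with its 95% confidence interval for every tested gene of the Ly6 family (16 genes) and the annexin family (11 genes), the genes of the list of 8 in red. In the Ly6 family 7 intervals lie above 0 and that of Ly6g below it, and in the annexin family every interval spans 0.

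Other genes of the fetal-like and regenerative program pointed mostly the same way as the 5 higher genes. Of the 18 genes tested out of 20 listed, 17 had the higher level in cKO and 1 in WT, the median log2 fold change was 0.45 and 0 passed the adjusted threshold. Relative to the WT mean, the list averaged 1.30 in cKO 1, 0.61 in cKO 3 and 0.16 in cKO 2 on the log2 scale, and between -0.30 and 0.20 in the WT libraries, so that cKO 1 stood apart and cKO 2 was within the WT range. Without adjustment 2 genes had a p under 0.05 in the higher and 1 in the lower direction, beside 6.91% and 7.08% of all genes. Ereg, the gene of the EGF receptor ligand epiregulin, had the smallest p. It was at 1245, 370 and 567 normalized counts in cKO 1, 2 and 3 and at 182, 166 and 82.9 in WT 1, 2 and 3, with no overlap and a log2 fold change of 2.23 ± 0.52 (SE; adjusted p = 0.232 in limma, and 0.0426 with array weights). Msln, the gene of mesothelin, was at 114, 16.6 and 26.8 in cKO 1, 2 and 3 against 5.93 to 14.4 in WT (1.78, adjusted p = 0.338, and 0.99 without cKO 1). Hmga2, an oncofetal chromatin protein, was the lower gene, at 89.1, 123 and 85.6 in cKO 1, 2 and 3 and 146, 148 and 142 in WT 1, 2 and 3 (-0.57, adjusted p = 0.301, and 0.0490 with array weights).

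For the YAP-TEAD pathway, 21 of 22 listed targets were tested, with 15 higher, 6 lower and a median log2 fold change of 0.28. Cyr61, a matricellular protein, was at 250.2, 175 and 154 normalized counts in cKO 1, 2 and 3 and at 54.3, 105 and 139 in WT 1, 2 and 3 (log2 fold change 1.02, adjusted p = 0.310). Amotl2, which binds YAP, was at 339, 289.7 and 262 in cKO 1, 2 and 3 and at 211, 215 and 225 in WT 1, 2 and 3 (0.44, adjusted p = 0.279), and Ccdc80 had a log2 fold change of 1.09 (adjusted p = 0.319). Cyr61 was at 0.64 without WT 1 and Ccdc80 at 0.66 without WT 2. In 5 of the 21 targets, Cyr61, Amotl2 and Ccdc80 among them, every cKO library was above every WT library. In 0 of them every cKO library was below, beside 10.5% and 10.9% of all genes tested. Ctgf, another target, had a log2 fold change of -0.03 (adjusted p = 0.960 in limma). The 18 Hippo kinases and YAP-TEAD factors had a median of 0.11, with 14 higher and 4 lower, led by Tead4 (0.90, adjusted p = 0.341), Tead1 (0.35, adjusted p = 0.411) and Taok1 (0.22, adjusted p = 0.424). This list pools YAP and the TEAD factors with genes that restrain YAP, so these counts give no direction for the pathway. Yap1 itself was at -0.10 (adjusted p = 0.684 in limma). Without cKO 1, Tead4 was at 0.53 and Tead1 at 0.17, without cKO 2 Tead1 was at 0.54, and without WT 3 Taok1 was at 0.12. Without adjustment, 3 of the 21 targets and 1 of the 18 factors (Tead4) had a p under 0.05, all higher in cKO, beside 6.91% of all genes, so that the factors were near the share of all genes. Of the 9 adult crypt stem cell markers tested 8 were lower, with a median of -0.29. That list averaged -0.79 in cKO 1 but -0.10 in cKO 2 and -0.08 in cKO 3, which were within the WT range of -0.10 to 0.11. In 3 of the 9 (Axin2, Znrf3 and Cdca7) every cKO library was below every WT library, beside 10.9% of all genes tested. Lower levels were not confined to stem cell markers. Of the 10 colonocyte markers 8 were lower and 2 higher, with a median of -0.61. In 0 of these 10 every cKO library was below every WT library. Their summed level was 46892, 78104 and 47495 normalized counts in cKO 1, 2 and 3 and 61847 to 86722 in WT. Of the 8 goblet cell markers 4 were higher and 4 lower, with a median of -0.02. Whether the stem cell markers differed apart from other epithelial cells was not tested.

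Markers of other cells and of the interferon response differed between the same libraries. All 16 interferon response genes were higher in cKO, with a median log2 fold change of 0.79, and 7 of them had an unadjusted p under 0.05 in that direction, beside 6.91% of all genes. Their summed level was 26192, 13561 and 18062 normalized counts in cKO 1, 2 and 3 and between 10838 and 12640 in WT, the same order of cKO libraries as for Ly6a. Ifi27l2a (1.66, adjusted p = 0.137), Psmb9 (0.54, adjusted p = 0.211) and Gbp3 (1.01, adjusted p = 0.264) had the smallest p. With array weights these 3 passed the threshold (adjusted p = 0.0212, 0.0212 and 0.0262). The part of the interferon response in the Ly6a difference was not tested.

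Of the 10 endothelial markers 8 were higher in cKO, with a median of 0.43 and a summed level of 2878 to 5040.1 normalized counts in cKO and 2136 to 2913 in WT. All 10 fibroblast markers were higher, with a median of 0.67 and sums of 22741 to 45151 in cKO and 11637 to 19730 in WT, and all 10 macrophage and monocyte markers were higher, with a median of 0.25. All 10 tested neutrophil markers were higher, with a median of 3.35 and sums of 9256, 263 and 1412 in cKO 1, 2 and 3 against 189 to 257 in WT. In each of these lists except the macrophage list, cKO 1 had the highest level, as it did for Anxa1 and Ly6a. Their part in the differences of these genes was not tested.

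Squamous markers were low in every library. Of 18 listed, 13 were in the table and 4 were tested, and 1 of them (Krt13) was higher and 3 (Krt10, Sbsn and Krt14) were lower in cKO, with a median log2 fold change of -0.16. Of these markers, Krt4, Krt6a, Krt1 and Trp63 did not exceed 3.83 normalized counts in any library. Krt14 was at 46.0, 1.11 and 7.22 in cKO 1, 2 and 3 and at 6.91 to 13.5 in WT. Krt15, which was not tested, was at 17.3, 12.2 and 9.28 in cKO 1, 2 and 3 and at 3.00 to 10.8 in WT. The summed level of the list was 341, 113 and 135 in cKO 1, 2 and 3 and 85.9 to 113 in WT. Krt13, a keratin of non-cornified squamous epithelium, was at 184, 24.3 and 42.3 in cKO 1, 2 and 3 and at 10.9, 12.6 and 12.0 in WT 1, 2 and 3 (log2 fold change 2.20, adjusted p = 0.282), with cKO 1 far above the rest as for Ly6d. Mesothelial markers, which include Msln, summed to 62.9 to 167 in cKO and 37.9 to 61.2 in WT. Without Msln the sums overlapped, at 36.1 to 52.7 in cKO and 26.0 to 55.3 in WT. The part of squamous and mesothelial cells in the levels of Ly6d, Krt7, Anxa8 and Msln was not tested.

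**Figure D5:**
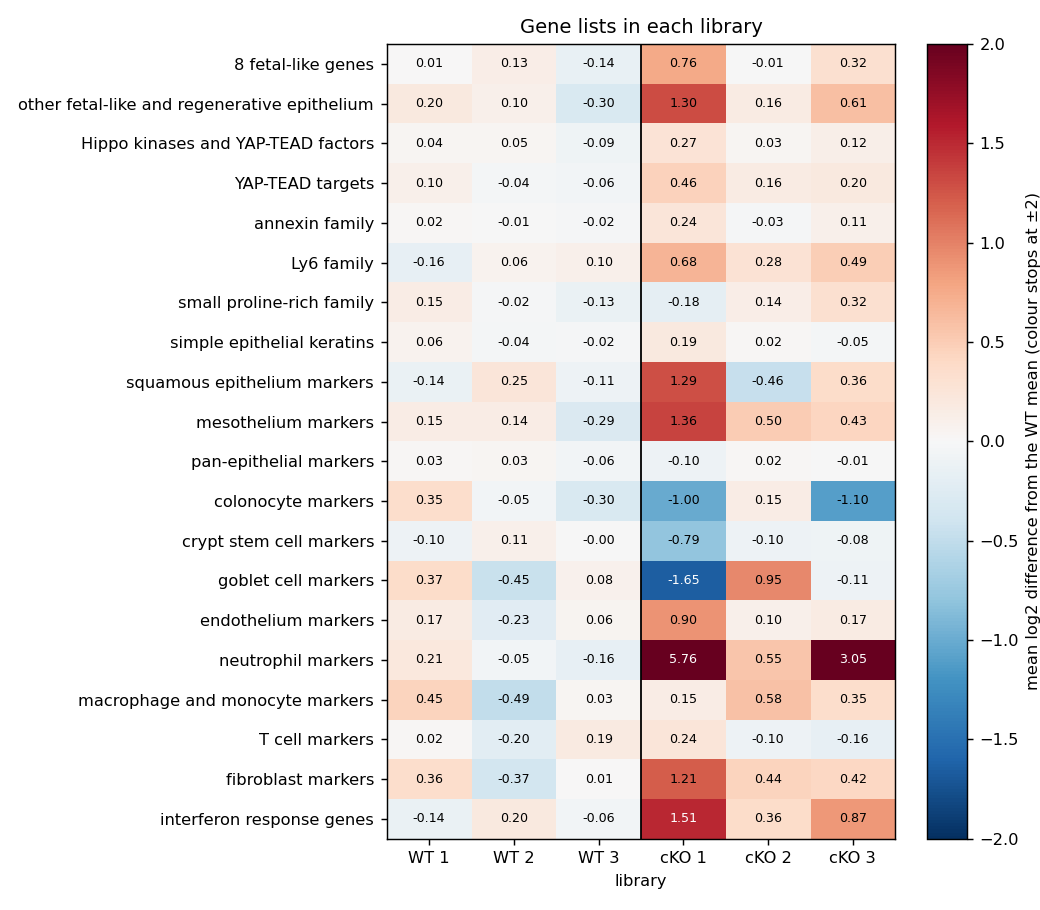
Mean log2 difference from the WT mean in each library for the 8 genes and for 19 other gene lists, with each value printed in its cell and colour limited to ±2. The 8 genes average 0.76 in cKO 1, -0.01 in cKO 2 and 0.32 in cKO 3. The neutrophil list reaches 5.76 in cKO 1, and the pan-epithelial list stays between -0.10 and 0.03 in all 6 libraries.

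Among 11880 protein-coding genes with a mean of at least 50, those whose log2 level was most like that of each gene over the 6 libraries were found by Pearson's r. These values are a description, and with so many genes searched over only 6 libraries all of them lay between 0.977 and 0.999. For Ly6a they were Tapbp (r = 0.999), Dtx3l (0.996) and Spats2l (0.995). For Ly6d they were Zfp260 (0.997), Med11 (0.992) and Asap3 (0.992), and for Krt7 they were C1qtnf1 (0.999), Aebp1 (0.998) and Vangl1 (0.996). For Anxa1, 2 of the 3 most alike were Psat1 (0.990) and Nckap5 (0.990), and for Anxa8 they were Clip3 (0.991), Appl1 (0.989) and Duoxa2 (0.985). For Anxa3 they were Efl1 (0.980), Mtcl1 (0.979) and Tdrd3 (0.977), for Clu they were Mrpl46 (0.985), Spib (0.980) and Tsc22d3 (0.977), and for Sprr1a they were Stk40 (0.992), Cdc42bpb (0.985) and Prkab2 (0.984). No gene appeared in the lists of more than 1 of the 8 genes.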

How the data were processed

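RNA sequencing of DSS-treated colon was analysed from 1 table of 6 libraries, 3 cKO and 3 WT, grouped by title. The authors deposited normalized counts, a signal per gene divided by 1 factor per library. Every value is a whole multiple of its library's smallest value. The notes of the submitters name HISAT2 2.0.5, featureCounts 1.5.0-p3 and a human build, whereas the identifiers and coordinates are those of mouse GRCm38. Strand use in counting and the treatment of shared reads are not given in the sources used here. The deposited genotype means, fold changes and p-values were not used.

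Genes that averaged 10 or more were kept, 1 was added to each value before taking log2, and limma 3.58.1 under R 4.3.3 was run with trended, robust eBayes and Benjamini-Hochberg adjustment. Fold changes are on this scale. The test was checked on simulated data in which genes varied independently and each gene had the same spread in all 6 libraries. That check does not cover libraries as unequal as these. Titles share replicate numbers, but same-numbered libraries did not deviate together (correlations -0.029, -0.090 and -0.056), so no block was used. Replicates are separately titled samples, and p-values set the difference between genotypes against the spread between them. The titles do not say whether each sample is a separate mouse. Sequences come from RefSeq GRCm38.p6. Named genes were the 8 genes, the 3 with the smallest p in each related list, marker genes needed beside them, the 3 most alike genes, and Ly6g, Ctgf and Yap1. The genes, the lists and the design were chosen with earlier results of these data known. Genes of the lists that were not in the table, and 1 most alike gene, are not reported here. Figures were drawn with matplotlib 3.10.9.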

Additional observations from a re-analysis of the deposited data

How the results depend on the processing

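The median log2 fold change of the 8 genes stayed between 0.13 and 0.66 over 15 alternatives, and Ly6a, Ly6d, Krt7, Anxa1 and Anxa8 kept their direction in all of them. The number of genes called higher and lower, 0 and 0, became 7 and 23 with no filter on low values and 262 and 369 with array weights, and ranged from 0 to 70 and from 0 to 52 when 1 library was left out (70 and 52 without cKO 2, 2 and 22 without cKO 1). With array weights 1 of the 8 genes, Ly6a, was called, and in the other alternatives 0 were. Among the other named genes, Ereg, Hmga2, Ly6c2, Ifi27l2a, Psmb9 and Gbp3 also passed with array weights, Psmb9 and Gbp3 without cKO 2, and Ifi27l2a with no filter on low values. The number of the 8 genes above every WT library was 3 to 5 with 1 library left out, an alternative chosen after seeing the data, as was scaling to pan-epithelial markers. With array weights Anxa3 turned to 0.017 and Sprr1a to 0.10, and Clu went from -0.04 to -0.41. With 1 library left out, log2 fold changes ranged from -0.083 to 0.059 for Anxa3, from -0.35 to 0.19 for Clu, from -0.82 to 0.24 for Sprr1a and from -0.79 to 0.27 for Sprr2b. With the replicate block, 0 genes were called, and Ly6a (log2 fold change 0.65, adjusted p = 0.334) and Ly6d (1.20, adjusted p = 0.312) were on the same side of the threshold. The count-model alternatives planned for whole reads were not run, and the cause of these shifts was not tested.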
